A study of Mus musculus with 16 samples.

Results

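The interferon response genes described here are 37 genes that cells switch on when interferon is sensed, and they were followed in the atria and ventricles of adult mice with and without inducible deletion of Meis1 and Meis2. They were chosen by name, with earlier results of these data known, and MHC genes were left out. All 37 were found among the 16118 genes of the deposited table. The 16 libraries came from 8 adult male littermates, with an atrium and a ventricle library from each mouse. The idKO atria and ventricles (4 libraries each) came from mice of genotype Meis1flox/flox, Meis2flox/flox with 1 copy of the transgene alpha-MHC-MerCreMer (tg/wt). The control atria and ventricles (4 libraries each) came from littermates with the same floxed alleles and no transgene (wt/wt). Hearts of both genotypes were taken 2 weeks after tamoxifen induction. MerCreMer is a Cre recombinase that tamoxifen activates, and the alpha-MHC promoter drives it in cardiomyocytes, so the floxed genes of other heart cells are not its target. Control mice had no Cre, so what the transgene or active Cre does by itself cannot be told apart from the deletion.

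Interferons are cytokines that infected or stressed cells release. Type I interferon binds the receptor chains IFNAR1 and IFNAR2, the kinases JAK1 and TYK2 phosphorylate STAT proteins, among them STAT2, and these join IRF9 in a complex that binds the interferon-stimulated response element (ISRE) in target promoters. Interferon gamma acts mainly through the gamma-activated site (GAS). The genes switched on in this way detect foreign nucleic acids, degrade viral RNA, block viral entry, coat vacuoles that hold parasites, or feed back on the pathway. In the heart, macrophages, endothelial cells, fibroblasts and cardiomyocytes can all carry such a response at a low resting level.

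Promoters of the members are shown for this shared element. A RefSeq promoter (GRCm38.p6, 250 bases before to 50 after the start of the gene) was listed for 28 of the 37 members. None is listed for Zbp1, Oas2, Mx1, Mx2, Iigp1, Usp18, Rtp4, Ifi27 and Parp14. The ISRE core, searched as GAAA and GAAA with 2 bases of any kind between them on both strands, was found in 16 of the 28, which is 57.14% of them, beside 3.993% of the 27025 genes with a promoter. A longer form, the core followed by CT, was found in 11 of the 28, beside 0.3034% of all genes. The GAS, searched likewise as TTCNNNGAA, was found in 9 of the 28, or 32.14%, beside 9.554% of all genes. The windows below run 5′ to 3′ on the strand of the gene, and capitals mark the ISRE core on either strand. They are a selection among windows that lie before the annotated gene, for members whose levels are described further on. Oas1a, Gbp7 and Trim30a also had such windows, which are not shown.
Stat2: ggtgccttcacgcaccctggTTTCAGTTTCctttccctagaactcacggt
Ifit1: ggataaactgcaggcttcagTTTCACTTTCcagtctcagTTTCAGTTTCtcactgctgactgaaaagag
Ifit3: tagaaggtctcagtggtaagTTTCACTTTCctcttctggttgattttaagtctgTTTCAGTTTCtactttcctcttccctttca
Igtp: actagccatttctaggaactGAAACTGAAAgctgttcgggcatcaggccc
Isg15: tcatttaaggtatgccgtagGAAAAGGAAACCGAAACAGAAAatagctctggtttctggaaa
Rsad2: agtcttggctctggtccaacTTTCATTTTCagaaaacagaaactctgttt
Bst2: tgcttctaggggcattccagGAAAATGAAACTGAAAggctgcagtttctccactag
The Stat2 window is chr10:128270256-128270305 (plus strand), that of Ifit1 is chr19:34640765-34640833 (plus), that of Ifit3 chr19:34583353-34583436 (plus) and that of Igtp chr11:58199502-58199551 (plus). The Isg15 window is chr4:156200855-156200916 (minus strand), that of Rsad2 chr12:26456543-26456592 (minus) and that of Bst2 chr8:71537567-71537622 (minus). Ifit1 and Ifit3 each hold 2 separate cores, whereas Isg15 holds 3 and Bst2 holds 2 that overlap each other. A match is a description of the letters and not evidence of binding.

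Values are normalised counts-per-million (CPM) as the authors scaled them, and recovered reads ran from 13.1 to 21.8 M per library. All 5 atrial markers were called higher and all 4 ventricular markers lower in atria than in ventricles, in both genotypes. Meis2 was at 8.82 ± 0.848 CPM in idKO ventricles and 26.8 ± 4.24 CPM in control ventricles (SD, n = 4 each), a log2 fold change of -1.49 ± 0.12 SE with an adjusted p of 1.96e-05 in limma. In atria Meis2 was at 17.7 ± 1.64 CPM in idKO and 20.0 ± 1.48 CPM in control libraries, with an adjusted p of 0.966. Meis1 had a log2 fold change of -0.24 in idKO ventricles (adjusted p = 0.236) and of 0.06 in idKO atria (adjusted p = 0.986). Esr1, whose sequence is part of MerCreMer, was at 3099 ± 574 CPM in idKO ventricles, 0.967 ± 0.632 CPM in control ventricles, 186 ± 95.5 CPM in idKO atria and 5.02 ± 0.895 CPM in control atria. The lower RNA of the targeted pair was thus measured for Meis2 in ventricles and passed the test for neither gene in atria. In bulk RNA, fewer cells of a type and less RNA per cell cannot be told apart.

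Per kilobase of exon, and averaged over the 16 libraries, the members spanned from 0.244 CPM per kilobase for Mx1, a GTPase that traps viral nucleocapsids, to 88.9 CPM per kilobase for Ifitm3, a membrane protein that blocks fusion of viruses with endosomes. Ifi27, a small interferon-induced membrane protein, followed at 28.1 and Bst2, or tetherin, which holds budding virions at the cell surface, at 21.2 CPM per kilobase. Gbp2 (11.1), Ifi35 (9.86) and Iigp1 (9.21) came next on the same scale. At the low end stood Mx2 at 0.442 and Zbp1 at 0.409 CPM per kilobase. The table therefore holds reads of these genes in every group, from 0 to 28 reads per library for Mx1 to 388 to 1427 for Ifitm3. Iigp1 had 248 to 1415 reads per library.

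In idKO ventricles the interferon response genes stood slightly above the controls as a group, and 2 of them passed the test. Iigp1, a GTPase of the IRG family that in mice disrupts the vacuoles of intracellular parasites, and Oas2, a synthase that makes the 2-5A messenger when it binds double-stranded RNA, were called higher. The log2 fold change was above 0 for 32 of the 35 tested members and below 0 for 3, with a median of 0.20 beside -0.01 over all 13144 tested genes. The 2 called members compare with 0.533% of all tested genes called higher, and none was called lower, beside 1.5% of all genes. Because the members were chosen with earlier results of these data known, such signs and shares are descriptions only, in both chambers. With recovered reads edgeR and voom called the same 2, DESeq2 added Ifi27, and all 3 tools called none lower; 8 members had an unadjusted p under 0.05 in limma, beside 15.0% of all genes. Libraries did not overlap for Iigp1, Oas2, Ifit1 and Rtp4, whose idKO values all lay above every control value, as they did for 3.17% of all genes. For no member did every idKO library lie below every control library, which 5.81% of all genes did. Zbp1 and Mx1 were too low to be tested in ventricles.

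Iigp1 (ENSMUSG00000054072) had 91.1, 91.6, 82.9 and 113 CPM in the 4 idKO ventricles, against 66.2, 70.1, 71.2 and 66.1 CPM in the control ventricles. The lowest idKO library was above the highest control library, and replicate 4 was the highest. The log2 fold change was 0.45 ± 0.09 SE (limma, adjusted p = 0.0149). Oas2 (ENSMUSG00000032690, GRCm38 chromosome 5, 120730333 to 120749853, minus strand) had 7.25, 12.2, 9.27 and 9.82 CPM in idKO ventricles and 6.41, 4.98, 4.48 and 4.77 CPM in control ventricles. Replicate 1 of each genotype lay nearest to the other group. Its log2 fold change was 0.78 ± 0.16 SE (limma, adjusted p = 0.0276), from 95 to 144 reads per idKO library and 44 to 78 per control library. The Iigp1 call was lost without control ventricle replicate 4 (adjusted p = 0.0551), and the Oas2 call without control ventricle replicate 2, 3 or 4 or idKO ventricle replicate 2 or 3 (adjusted p from 0.0668 to 0.0900). Both calls were lost in a joint fit of the chambers, with adjusted p of 0.262 for Iigp1 and 0.0806 for Oas2, and with a prior without trend, with 0.0899 for Iigp1 and 0.0659 for Oas2.

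**Figure D1:**
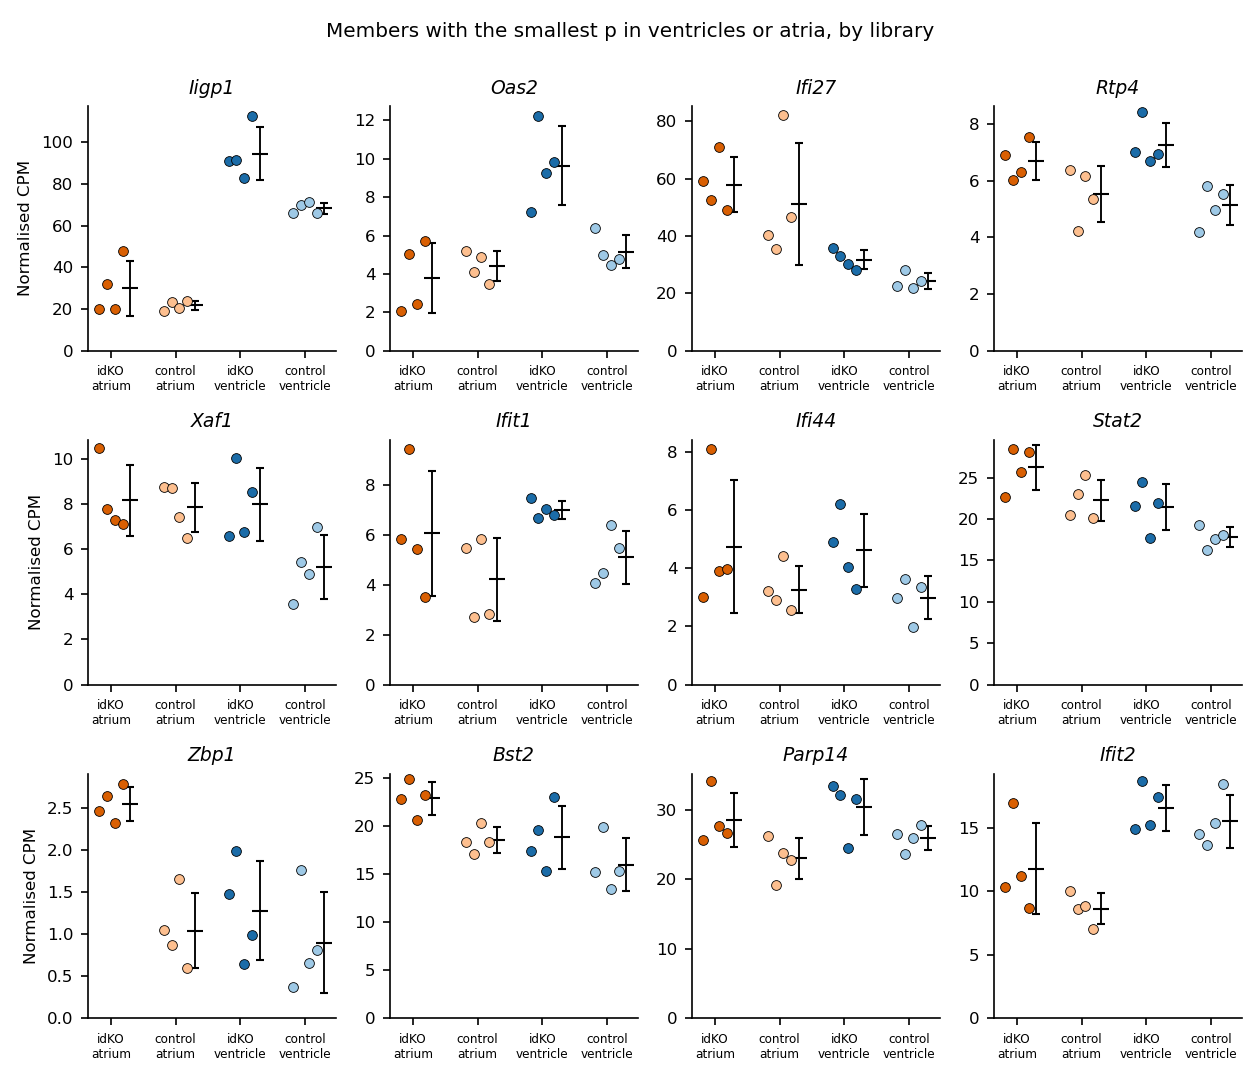
Level in normalised CPM (y axis, from 0) of 12 members in each library of idKO atrium, control atrium, idKO ventricle and control ventricle; points are libraries in replicate order and bars are the mean ± SD (n = 4). In ventricles the idKO points of Iigp1, Oas2, Rtp4 and Ifit1 all lie above the control points, and in atria those of Zbp1 and Bst2 do.

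The next 6 members by p in ventricles did not pass the adjusted test. Ifi27 had 35.9, 32.98, 30.2 and 28.1 CPM in idKO ventricles and 22.7, 28.2, 21.8 and 24.2 CPM in control ventricles (log2 fold change 0.38 ± 0.10 SE, adjusted p = 0.0926), and DESeq2 on recovered reads gave it an adjusted p of 0.0247. The groups met at 28.1 and 28.2 CPM. Rtp4, a chaperone of G protein-coupled receptors, had 7.02, 8.43, 6.70 and 6.96 CPM in idKO and 4.21, 5.81, 4.98 and 5.55 CPM in control ventricles (0.43 ± 0.14 SE, adjusted p = 0.167). Ifit1, which binds viral RNA caps that lack host methylation, had 7.48, 6.65, 7.003 and 6.80 CPM in idKO and 4.04, 4.46, 6.39 and 5.48 CPM in control ventricles (0.40 ± 0.15 SE, adjusted p = 0.225). For both genes the groups were apart by less than 1 CPM. Xaf1, a partner of the caspase inhibitor XIAP, had 6.57, 10.03, 6.78 and 8.55 CPM in idKO and 3.55, 5.43, 4.88 and 6.96 CPM in control ventricles (0.54 ± 0.19 SE, adjusted p = 0.186). Ifi44 had 4.90, 6.22, 4.05 and 3.30 CPM in idKO and 2.98, 3.63, 1.96 and 3.36 CPM in control ventricles (0.49 ± 0.21 SE, adjusted p = 0.282). Both groups overlapped for these 2 genes, and for both idKO replicate 2 was the highest of the 8 libraries. Stat2, the transducer specific to type I and type III interferon, had 21.6, 24.5, 17.8 and 21.98 CPM in idKO and 19.3, 16.3, 17.7 and 18.1 CPM in control ventricles (0.25 ± 0.11 SE, adjusted p = 0.303).

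By role, none of the remaining members of the ventricle comparison passed the test. Among transcription factors, Irf7, the regulator that amplifies type I interferon, was at 12.1 ± 2.64 CPM in idKO and 9.60 ± 1.07 CPM in control ventricles (SD, n = 4 each, as below). Irf1, which acts downstream of interferon gamma, was at 27.3 ± 3.06 CPM in idKO and 25.1 ± 1.34 CPM in control ventricles, and Irf9, the DNA-binding partner of STAT2, was at 20.6 ± 4.60 CPM in idKO and 18.8 ± 1.79 CPM in control ventricles. The log2 fold changes of the 4 transcription factors ran from 0.10 to 0.28. Among sensors, Ifih1 (MDA5, a sensor of long double-stranded RNA) was at 12.8 ± 1.73 CPM in idKO and 10.9 ± 0.428 CPM in control ventricles. Ddx58 (RIG-I, a sensor of uncapped RNA ends) was at 14.6 ± 1.78 CPM in idKO and 13.4 ± 1.12 CPM in control ventricles, and Trim25, the ubiquitin ligase that activates RIG-I, at 40.9 ± 4.17 CPM in idKO and 39.5 ± 1.92 CPM in control ventricles. The other OAS members were Oas1a, at 2.60 ± 0.717 CPM in idKO and 1.91 ± 0.736 CPM in control ventricles, and Oasl2, at 9.08 ± 1.70 CPM in idKO and 7.94 ± 0.613 CPM in control ventricles. The ranges of the 2 groups overlapped for each of these genes.

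The IFIT family, RNA-binding proteins encoded side by side on chromosome 19, had values of both signs in ventricles. Ifit2 was at 16.6 ± 1.81 CPM in idKO and 15.5 ± 2.10 CPM in control ventricles. Ifit3 was at 10.3 ± 2.55 CPM in idKO and 13.3 ± 2.33 CPM in control ventricles (log2 fold change -0.35 ± 0.18 SE, unadjusted p = 0.073). The remaining negative members were Isg15, the ubiquitin-like protein attached to other proteins during the response, at 3.12 ± 0.645 CPM in idKO and 3.31 ± 0.443 CPM in control ventricles, and Ifi35, at 19.3 ± 2.39 CPM in idKO and 20.4 ± 3.63 CPM in control ventricles. Usp18, which removes ISG15 and damps the type I receptor, was at 3.798 ± 1.003 CPM in idKO and 2.56 ± 0.415 CPM in control ventricles, and Herc6, the main ISG15 ligase of mice, at 6.48 ± 0.578 CPM in idKO and 5.23 ± 0.789 CPM in control ventricles. The log2 fold changes of Usp18 and Herc6 were 0.41 and 0.27, and that of Isg15 was -0.07. Without idKO ventricle replicate 3, the lowest idKO library for all 3 negative members, the values were -0.17 for Ifit3, 0.05 for Isg15 and -0.0044 for Ifi35. Without control ventricle replicate 2 that of Ifi35 was 0.04.

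GTPases other than Iigp1 did not pass the test in ventricles. Igtp and Irgm1, regulatory IRG proteins that keep effector GTPases inactive on the cell's own membranes, had log2 fold changes of 0.21 and 0.14. The guanylate-binding proteins Gbp2, Gbp3 and Gbp7, which coat pathogen vacuoles, had 0.15, 0.12 and 0.05. Mx2 had 0.11, and Mx1 was at 0.958 ± 0.744 CPM in idKO and 0.647 ± 0.257 CPM in control ventricles. Among enzymes that act on nucleotides, Rsad2 (viperin, which makes a chain-terminating nucleotide) was at 14.1 ± 2.58 CPM in idKO and 11.3 ± 2.85 CPM in control ventricles. Its chromosome 12 neighbour Cmpk2, a mitochondrial nucleotide kinase, was at 10.98 ± 2.49 CPM in idKO and 8.98 ± 0.649 CPM in control ventricles, and Samhd1, which breaks down deoxynucleotides, at 41.3 ± 2.61 CPM in idKO and 37.8 ± 4.62 CPM in control ventricles. Ifitm3 (log2 fold change 0.18), Bst2 (0.22), Parp14 (0.21), an ADP-ribosyltransferase, and Trim30a (0.18), a mouse TRIM protein, completed the set.

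**Figure D2:**
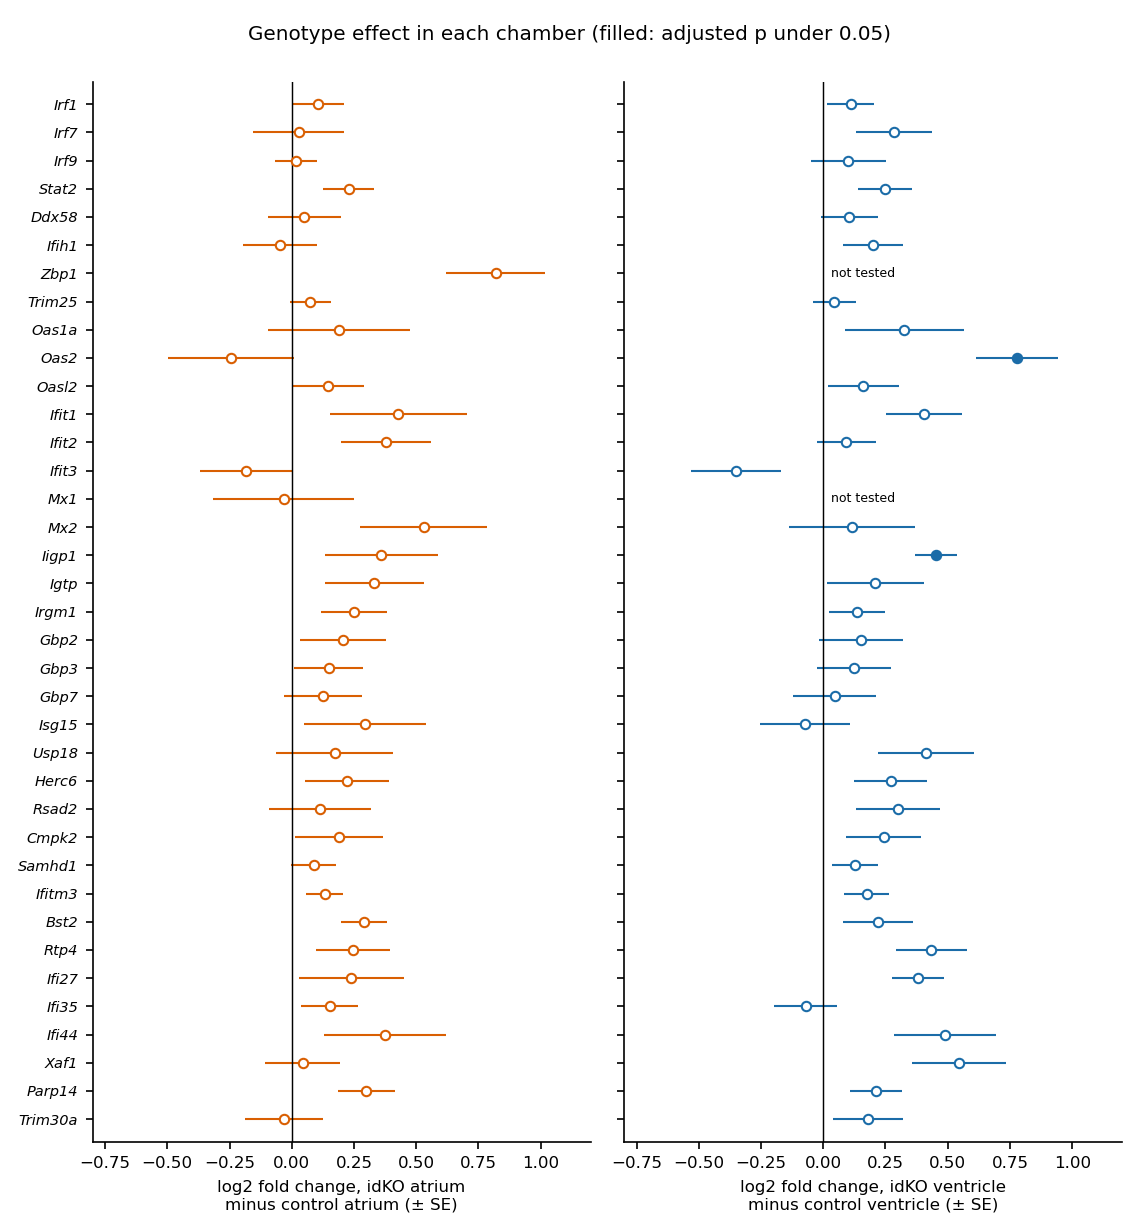
Log2 fold change ± SE of each member, idKO minus control, in atria (left) and ventricles (right), with genes ordered by role; filled points passed an adjusted p under 0.05. Most points lie right of 0 in both panels, with medians of 0.17 in atria and 0.20 in ventricles, and the 2 filled points are Oas2 and Iigp1 in ventricles.

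Summed marker levels of other heart cells were set beside the ventricle difference. No sum passed the adjusted test, but with 4 against 4 libraries and 18 sums that test could hardly pass any. Even the atrial marker sum, with a ratio of 5.29 in ventricles, had an adjusted p of 0.257 (exact permutation). All 14 macrophage markers were in the table, none at 0 reads throughout a group, and their summed level was 535 ± 41.4 CPM in idKO ventricles (485 to 586) and 443 ± 7.91 CPM in control ventricles (433 to 452). The ratio was 1.21 (exact permutation test, two-sided, p = 0.0286, the smallest that 4 against 4 allows; adjusted p = 0.257 over 18 sums of marker lists). Of the 14 markers 13 had a positive log2 fold change, with a median of 0.19, and Lyz2 was called higher. In atria the same sum was 603 ± 61.1 CPM in idKO and 601 ± 64.1 CPM in control libraries. Fibroblast markers summed to 1334 ± 341 CPM in idKO and 1096 ± 93.9 CPM in control ventricles, a ratio of 1.22 (exact permutation p = 0.171), and 7 of 8 were positive with a median of 0.27. Endothelial markers summed to 1138 ± 40.6 CPM in idKO and 1102 ± 11.6 CPM in control ventricles, and 10 of 11 were positive with a median of 0.08. Of the 5 atrial markers Nppa was called higher in idKO ventricles, where their sum was 1144 ± 507 CPM against 216 ± 20.2 CPM in control ventricles, and of the 6 cardiomyocyte markers Ryr2 was called lower. Of the 4 ventricular markers 2, Mpped2 and Irx4, were called lower. In ventricles 0.533% of all tested genes were called higher and 1.5% lower. The marker lists, too, were chosen with earlier results of these data known. The part of these cell types and markers in the levels of the members was not tested.

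In idKO atria the members again lay slightly above controls on average, but none passed the test. By mouse, the shifts of idKO replicates 3 and 4 lay within the range of the control atria, as given below. The log2 fold change was above 0 for 32 of 37 members, with a median of 0.17 beside -0.00 over all 14523 tested genes. None was called higher, beside 0.0207% of all genes, and none lower, beside 0%. Of the 37 members 4 had an unadjusted p under 0.05, beside 4.61% of all genes, and edgeR, DESeq2 and voom on recovered reads called none of them either. Libraries did not overlap for Zbp1 and Bst2, with idKO above control, beside 1.52% of all genes; no member had every idKO library below every control library, beside 1.3%.

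Zbp1, a sensor of left-handed nucleic acid that can trigger necroptosis, had 2.46, 2.64, 2.32 and 2.78 CPM in idKO atria, against 1.04, 0.866, 1.66 and 0.602 CPM in control atria. All idKO libraries were higher and close to each other, from 31 to 51 reads per idKO library and 10 to 23 per control library. Zbp1 reached the 1 CPM that the filter asks of 4 libraries in all 4 idKO atria and in 2 control atria, so it entered the test through the group where it was higher. The log2 fold change was 0.82 ± 0.20 SE (unadjusted p = 0.0014, limma adjusted p = 0.816). Bst2 had 22.9, 24.9, 20.7 and 23.3 CPM in idKO atria and 18.4, 17.2, 20.4 and 18.4 CPM in control atria (0.29 ± 0.09 SE, adjusted p = 0.966). The lowest idKO and the highest control library were almost level. Parp14 had 25.7, 34.2, 27.8 and 26.6 CPM in idKO and 26.2, 19.2, 23.8 and 22.8 CPM in control atria (0.30 ± 0.11 SE, adjusted p = 0.966). Stat2 had 22.7, 28.5, 25.7 and 28.1 CPM in idKO and 20.5, 23.0, 25.4 and 20.1 CPM in control atria (0.23 ± 0.10 SE, adjusted p = 0.966). Ifit2 had 10.3, 17.0, 11.2 and 8.66 CPM in idKO atria and 10.01, 8.63, 8.86 and 7.02 CPM in control atria (0.38 ± 0.18 SE, adjusted p = 0.966), and idKO replicate 2 stood apart from the others. Mx2 had 1.44, 3.502, 2.16 and 1.05 CPM in idKO and 0.657, 0.926, 1.31 and 1.23 CPM in control atria (0.53 ± 0.26 SE, adjusted p = 0.966), again highest in idKO replicate 2. Replicates 1 and 2 of the control atria lay under 1 CPM, so Mx2 too met the filter in part through the group where it was higher.

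Negative fold changes in atria belonged to 5 members, and none passed the test: Oas2 (-0.24 ± 0.25 SE), Ifit3 (-0.18 ± 0.18 SE), Ifih1 (-0.05 ± 0.15 SE), Mx1 (-0.03 ± 0.28 SE) and Trim30a (-0.03 ± 0.16 SE). IRG GTPases had 0.25 to 0.36, GBP GTPases 0.12 to 0.20 and the ISG15 system 0.17 to 0.29. Transcription factors spanned 0.02 to 0.23 and the nucleotide enzymes 0.09 to 0.19. Ifi27, the second member per kilobase, was at 57.9 ± 9.73 CPM in idKO and 51.2 ± 21.2 CPM in control atria, where replicate 3 alone reached 82.2 CPM. In atria the 6 lymphocyte markers of the table summed to 19.3 ± 22.7 CPM in idKO (3.89 to 52.3) and 38.0 ± 16.7 CPM in control libraries (17.0 to 57.2; exact permutation p = 0.229), and endothelial markers to 1909 ± 92.7 CPM in idKO and 1708 ± 78.1 CPM in control libraries (exact permutation p = 0.0571). Log2 fold changes were positive for 11 of 11 endothelial markers (median 0.15) and 8 of 8 fibroblast markers (median 0.22) and negative for 6 of 6 cardiomyocyte markers (median -0.09), and none of these passed the test. Fibroblast markers summed to 2086 ± 351 CPM in idKO and 1886 ± 377 CPM in control atria. Their part in the atrial levels was not tested.

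Whether the genotype effect differed between the chambers was tested directly, as the effect in atria minus that in ventricles. No member passed, beside 0.269% of 14871 genes called higher and 0.0269% called lower, 1 member had an unadjusted p under 0.05, and edgeR, DESeq2 and voom called none. The median over the members was -0.04, with 15 positive and 22 negative. Oas2 had the smallest p, with a difference of -1.02 ± 0.32 SE (unadjusted p = 0.0047, limma adjusted p = 0.403). In atria it had 2.07, 5.04, 2.43 and 5.70 CPM in idKO and 5.22, 4.09, 4.90 and 3.47 CPM in control libraries, so that replicates 1 and 3 of the idKO group lay below all controls and the other two did not. Xaf1 followed with -0.50 ± 0.25 SE (adjusted p = 0.782), Zbp1 with 0.54 ± 0.33 SE (adjusted p = 0.843) and Ifi35 with 0.22 ± 0.17 SE (adjusted p = 0.920). Xaf1 had 10.5, 7.77, 7.29 and 7.10 CPM in idKO atria and 8.78, 8.69, 7.44 and 6.502 CPM in control atria, and the groups overlapped. Zbp1 in ventricles had 1.48, 1.99, 0.644 and 0.994 CPM in idKO and 0.368, 1.76, 0.654 and 0.813 CPM in control libraries. Ifi35 had 16.4, 15.6, 13.5 and 14.4 CPM in idKO atria, 13.6, 11.9, 15.701 and 12.6 CPM in control atria, 20.8, 21.6, 16.5 and 18.005 CPM in idKO ventricles and 17.8, 25.7, 19.4 and 18.5 CPM in control ventricles.

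Among the idKO mice, mouse 2 had the highest and mouse 3 the lowest interferon response genes as a group, in both chambers. In idKO atria the median over members, relative to the control mean, was 0.16, 0.37, 0.01 and 0.14 on the log2 scale for mice 1 to 4. In idKO ventricles it was 0.16, 0.33, 0.03 and 0.29, against -0.05, 0.04, -0.01 and 0.09 for the control ventricles. In control atria it was 0.01, -0.06, 0.15 and -0.13. The shift of idKO mouse 3 in either chamber lay within the range of the control libraries of that chamber, and that of idKO mouse 2 lay above it. In atria the shift of idKO mouse 4 (0.14) also lay within that range, and that of mouse 1 (0.16) was just above its top (0.15). In ventricles the shifts of idKO mice 1 and 4 lay above the control range. Mouse 2 had the highest idKO value for 24 of 37 members in atria and 22 in ventricles, and mouse 3 the lowest for 15 in atria and 18 in ventricles. The same idKO mouse was highest in both chambers for 20 of 37 members (mouse 2 for 16 and mouse 4 for 4), and the same control mouse for 8 of 37. Among control atria, replicate 3 was highest for 20 members and replicate 4 lowest for 19. These counts are descriptions, since the members are not independent of each other.

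**Figure D3:**
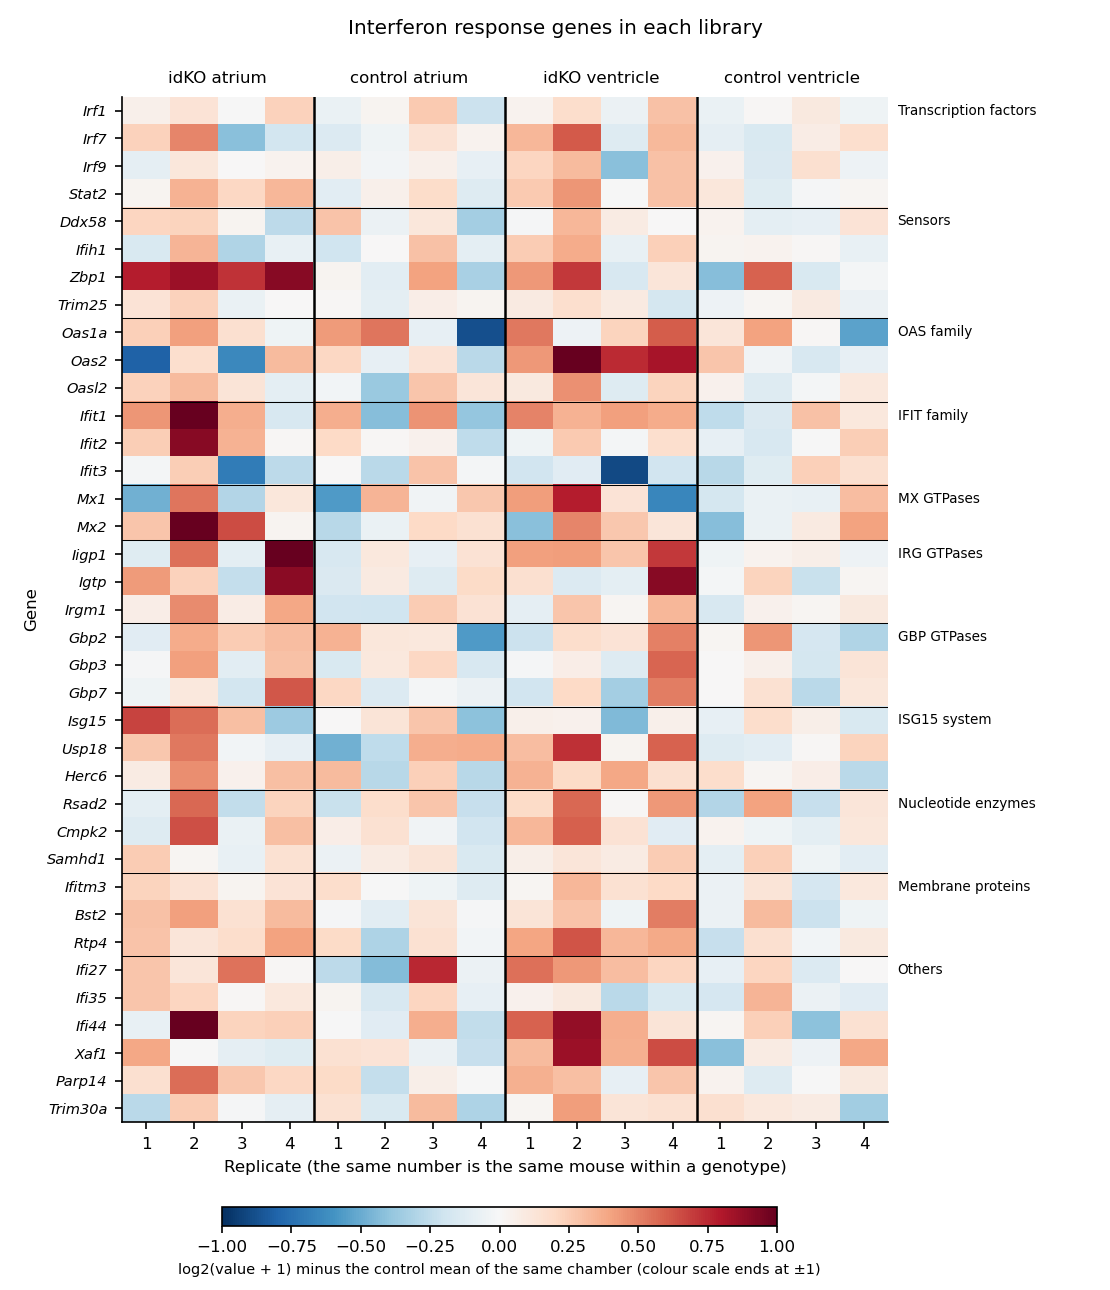
Each member (rows, grouped by role) in each library (columns), as log2(value + 1) minus the control mean of the same chamber, with red above and blue below it; colours end at ±1. Replicate 2 of the idKO atria and ventricles is red in most rows, and replicate 3 is near white or blue in many.

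The IRG and GBP GTPases were highest as a group in idKO mouse 4. Their median in idKO mouse 4 was 0.50 in the atrium and 0.55 in the ventricle above the control mean (log2), against 0.04 and 0.24 for all other members. In idKO mouse 2 it was 0.39 and 0.19 for these GTPases, against 0.35 and 0.34 for all others. Igtp had 15.4, 13.3, 9.36 and 21.8 CPM in idKO atria, 10.01, 11.98, 10.1 and 12.9 CPM in control atria, 17.4, 14.01, 14.4 and 29.9 CPM in idKO ventricles and 15.2, 18.2, 13.1 and 15.72 CPM in control ventricles. Iigp1 had 19.8, 32.1, 20.1 and 47.9 CPM in idKO atria and 19.2, 23.3, 20.4 and 23.9 CPM in control atria, so that mice 2 and 4 lay above the controls and mice 1 and 3 among them. Gbp7 had 18.3, 20.4, 16.5 and 29.6 CPM in idKO atria and 18.9, 25.1, 16.9 and 31.4 CPM in idKO ventricles, beside 17.1 to 21.996 CPM in control atria and 17.9 to 24.2 CPM in control ventricles. Mouse 4 had the highest idKO value for all 6 of these GTPases in ventricles, and for 3 of the 6 (Iigp1, Igtp and Gbp7) in atria, where mouse 2 was highest for the other 3. Without that ventricle the log2 fold change of Iigp1 was 0.37 (adjusted p = 0.0175). The split of the members was made after their values were seen.

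**Figure D4:**
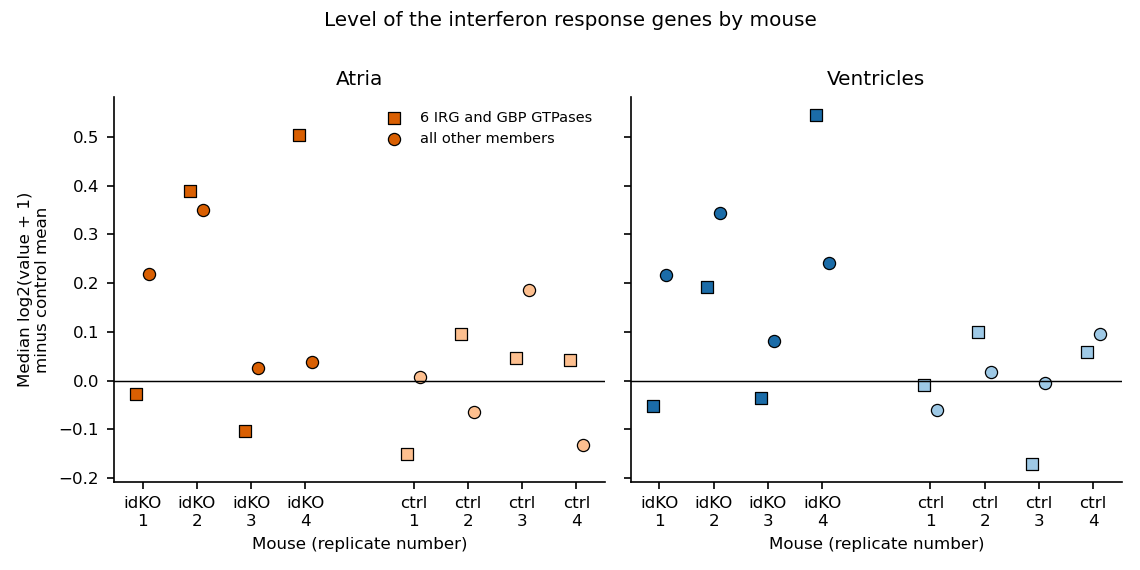
Median log2(value + 1) minus the control mean of the same chamber (y axis) for each idKO and control mouse (x axis), in atria and ventricles; squares are the 6 IRG and GBP GTPases and circles all other members. The squares of idKO mouse 4 are at 0.50 and 0.55, above all other points, and the circles are highest for idKO mouse 2.

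Between the chambers, members were called in both directions. In control hearts 9 members were called higher in atria and 4 lower, beside 28.2% of all 14871 genes called higher and 28.7% called lower, so that a call is common in this comparison. In idKO hearts 9 were called higher and 6 lower, beside 26.8% and 27.1% of all genes. Of the 13 calls in control hearts and the 15 in idKO hearts 11 were shared. The median over the members was 0.04 in idKO hearts and 0.08 in control hearts, beside 0.02 over all genes in each. With the mouse as a replicate block, 12 members were higher and 7 lower in control atria. In idKO atria 10 were higher and 8 lower with a fixed block, and 10 and 6 with a random block. With libraries rescaled to equal sums, which moved the median of all genes to 0.44 in idKO hearts and 0.51 in control hearts, 20 members were higher and 3 lower in idKO atria and 21 were higher and 2 lower in control atria. The directions below are therefore relative to the deposited scaling, under which the middle gene is near 0.

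Higher in atria were Ifi27, Oasl2, Herc6, Ifitm3 and Gbp2, in both genotypes. Ifitm3 had 81.5, 77.2, 71.1 and 77.1 CPM in idKO atria against 44.7, 55.7, 49.1 and 50.8 CPM in idKO ventricles, and 79.1, 69.8, 67.7 and 63.6 CPM in control atria against 42.3, 48.3, 39.1 and 47.4 CPM in control ventricles. Its log2 fold changes were 0.61 ± 0.08 SE (idKO, adjusted p = 5.56e-06) and 0.65 ± 0.08 SE (control, adjusted p = 2.20e-06). Atrial and ventricular libraries did not overlap. Oasl2, an OAS-like protein of mice, had 17.8, 18.9, 16.5 and 13.9 CPM in idKO atria against 8.54, 11.2, 7.15 and 9.42 CPM in idKO ventricles, and 14.7, 11.3, 18.4 and 16.4 CPM in control atria against 8.21, 7.15, 7.80 and 8.59 CPM in control ventricles. The log2 fold changes were 0.82 ± 0.15 SE in idKO (adjusted p = 9.46e-05) and 0.84 ± 0.15 SE in control hearts (adjusted p = 7.15e-05), again without overlap. Ifi27 had the largest, 0.84 ± 0.18 SE in idKO (adjusted p = 0.000746) and 0.98 ± 0.18 SE in control hearts (adjusted p = 0.000155). Herc6 had 0.64 ± 0.16 SE in idKO and 0.69 ± 0.16 SE in control hearts, and Gbp2 had 0.58 ± 0.19 SE in idKO and 0.53 ± 0.19 SE in control hearts. Stat2 and Ddx58 were also called in both genotypes, Zbp1 and Ifit3 in idKO hearts and Xaf1 and Ifih1 in control hearts. With the mouse as a replicate block, Ifit3, Samhd1 and Trim30a were also called higher in control atria, so that the Ifit3 call was then common to both genotypes. Bst2 was then also called higher in idKO atria. Zbp1 had 0.67 ± 0.23 SE in idKO hearts (adjusted p = 0.0188) and 0.13 ± 0.23 SE in control hearts, and its idKO call was lost without idKO replicate 3 (adjusted p = 0.0910) or 4 (adjusted p = 0.0904) and with edgeR on recovered reads (adjusted p = 0.056). The Gbp2 call was lost without idKO replicate 2 or 3 in idKO hearts (adjusted p of 0.0604 and 0.0564) and without control replicate 1 or 3 in control hearts (adjusted p of 0.115 and 0.118). Xaf1 (0.53 ± 0.18 SE in control hearts) was lost without control replicate 1 (adjusted p = 0.137) or 2 (adjusted p = 0.0527). No member passed the interaction test, so these calls are not shown to differ between the genotypes.

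Lower in atria were Iigp1, Rsad2, Ifit2 and Ifi35, in both genotypes. Iigp1 averaged 30.0 ± 13.3 CPM in idKO atria against 94.5 ± 12.7 CPM in idKO ventricles, and 21.7 ± 2.26 CPM in control atria against 68.4 ± 2.62 CPM in control ventricles. Its log2 fold changes were -1.71 ± 0.19 SE (idKO, adjusted p = 3.32e-07) and -1.62 ± 0.19 SE (control, adjusted p = 6.45e-07), the largest of any member in either direction. The IRG gene that passed the test in idKO ventricles was thus one with its higher level in ventricles. Rsad2 had 4.25, 7.37, 3.74 and 5.59 CPM in idKO atria against 12.8, 17.0, 11.2 and 15.3 CPM in idKO ventricles, and 3.83, 5.35, 5.82 and 3.81 CPM in control atria against 8.86, 15.0, 9.31 and 12.1 CPM in control ventricles (log2 fold changes -1.29 ± 0.20 SE in idKO and -1.10 ± 0.20 SE in control hearts). Its neighbour Cmpk2 had -0.43 ± 0.17 SE in idKO hearts (adjusted p = 0.0406) and -0.37 ± 0.17 SE in control hearts (adjusted p = 0.0681). With the mouse as a replicate block Cmpk2, Trim25 and Igtp were called lower in control atria too. Igtp and Irf7 were called lower in idKO atria with the fixed block but not with the random block. Ifit2 had -0.49 ± 0.16 SE in idKO and -0.78 ± 0.16 SE in control hearts, and Ifi35 had -0.34 ± 0.12 SE in idKO and -0.56 ± 0.12 SE in control hearts. Oas2 was called lower in idKO atria (-1.21 ± 0.22 SE, adjusted p = 0.000155) and had -0.19 ± 0.22 SE in control hearts (adjusted p = 0.502). In idKO hearts the Ifi35 call was lost without replicate 1, 2 or 4 (adjusted p from 0.0617 to 0.0951), the Ifit2 call without replicate 4 (adjusted p = 0.114) and the Cmpk2 call without replicate 1 or 3 (adjusted p of 0.231 and 0.133) or control replicate 1, 2 or 3 (adjusted p from 0.0511 to 0.0538), with edgeR (adjusted p = 0.0582) and with voom (adjusted p = 0.0511). With equal sums Iigp1 and Rsad2 were still called lower in both genotypes and Ifit2 and Ifi35 in neither, and in idKO hearts the log2 fold changes of Ifi35 and Cmpk2 turned to 0.12 and 0.01.

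**Figure D5:**
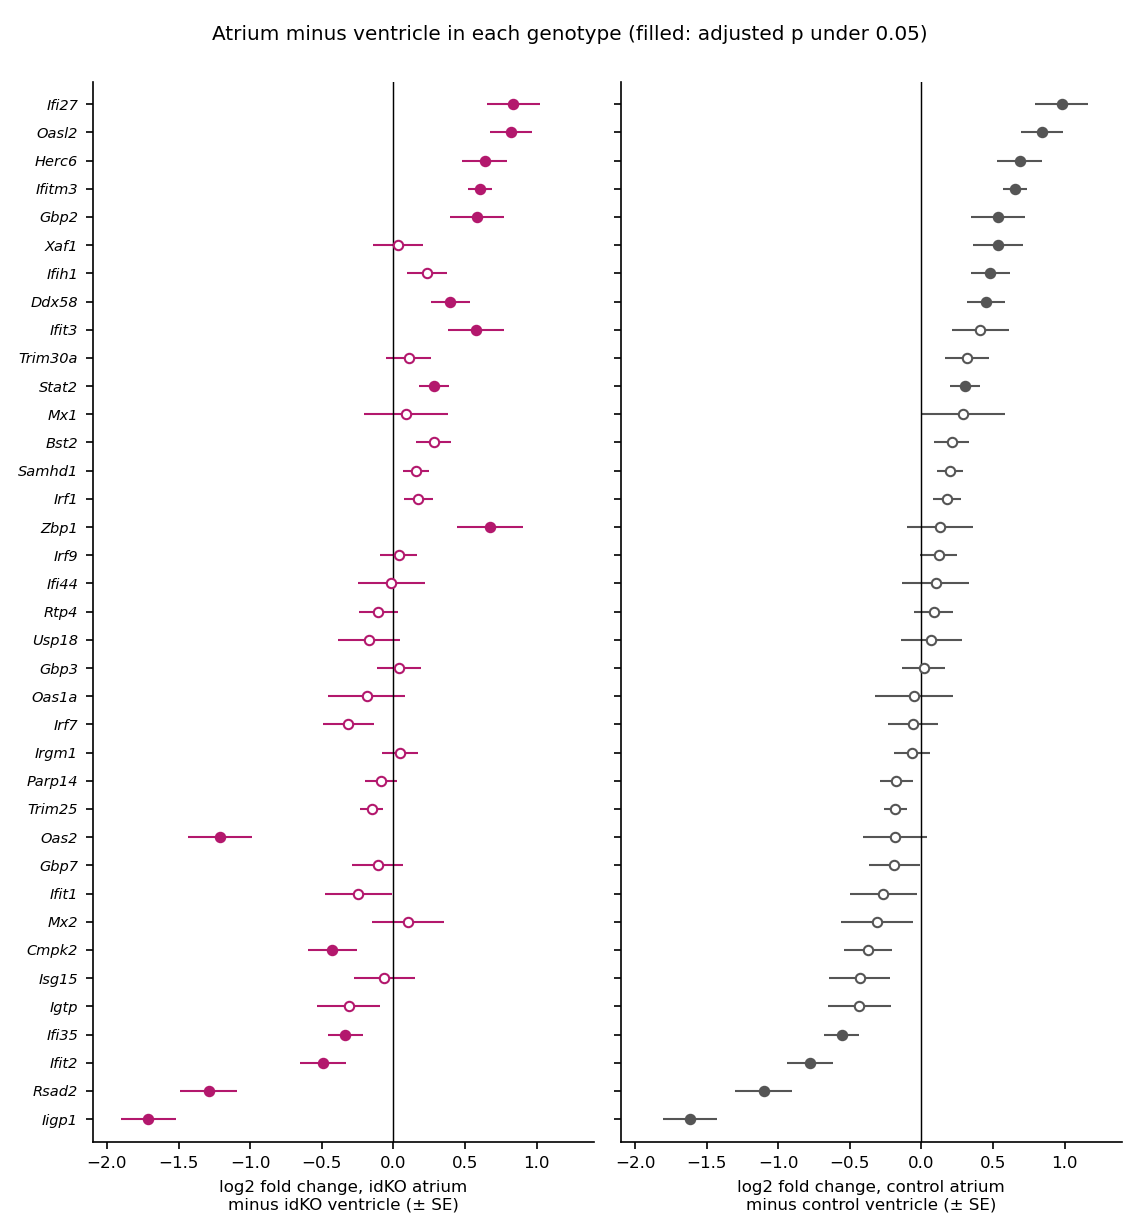
Log2 fold change ± SE of each member, atrium minus ventricle, in idKO hearts (left) and control hearts (right), ordered by the control value; filled points passed an adjusted p under 0.05. Ifi27, Oasl2, Herc6 and Ifitm3 are at the top in both panels, and Iigp1 and Rsad2 at the bottom.

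Cell type markers also differed between the chambers. In control hearts all 8 fibroblast markers, 7 of 14 macrophage markers and 5 of 6 tested lymphocyte markers were called higher in atria. Of the 6 cardiomyocyte markers 4 were called lower. These counts stand beside 28.2% of all genes called higher and 28.7% lower. In idKO hearts 8 of 8 fibroblast, 3 of 14 macrophage and 2 of 6 lymphocyte markers were called higher, beside 26.8% of all genes. Of the 6 cardiomyocyte markers 4 were called lower there and 1 higher, beside 27.1% of all genes called lower. The 11 endothelial markers were split in both genotypes, with 5 higher and 4 lower. Summed fibroblast levels were 1886 ± 377 CPM in control atria and 1096 ± 93.9 CPM in control ventricles. The part of the cell mixture in the chamber differences of the members was not tested.

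Genes of the interferon pathway around the members were not called in either chamber. Of 15 interferon ligand and receptor genes listed, 6 were in the table, and the absent genes could not be followed. The table held these 6 interferon receptor genes, 8 inhibitors of the pathway and 23 nucleic acid sensors and adaptors. Of these 6, 7 and 21 were tested in ventricles and 6, 8 and 22 in atria, and none was called between idKO and control. In ventricles 0, 3 and 4 of the tested genes had an unadjusted p under 0.05, beside 15.0% of all genes. In atria 0, 0 and 2 did, beside 4.61% of all genes. The median log2 fold changes of the 3 lists were 0.02, -0.01 and 0.15 in ventricles and 0.04, 0.03 and -0.06 in atria. All 5 JAK-STAT transducers of the table were tested and none was called. Of these 5 genes 0 had an unadjusted p under 0.05 in ventricles and 1 in atria, with medians of 0.03 and -0.004. In ventricles the smallest p among inhibitors belonged to Ptpn11, the phosphatase SHP2 (-0.26 ± 0.07 SE, adjusted p = 0.0637), Cish, a SOCS family inhibitor of cytokine signalling (0.43 ± 0.12 SE, adjusted p = 0.0948), and Ptpn2, a phosphatase that acts on JAK kinases (0.38 ± 0.12 SE, adjusted p = 0.133). Among sensors Tlr3, the endosomal receptor of double-stranded RNA, was at 13.99 ± 1.57 CPM in idKO and 10.1 ± 0.807 CPM in control ventricles (0.43 ± 0.12 SE, adjusted p = 0.0915). Mavs, the mitochondrial adaptor of RIG-I and MDA5, was at 80.7 ± 3.35 CPM in idKO and 93.6 ± 8.46 CPM in control ventricles (-0.21 ± 0.07 SE, adjusted p = 0.198). DESeq2 on recovered reads called Cish and Tlr3 higher and Ptpn11 lower in ventricles, while edgeR and voom called none of the receptor, inhibitor and sensor lists.

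A further 71 interferon response genes of the table that are not members had small positive medians as well. In ventricles 48 of 63 tested were positive, beside 48.0% of all genes, with a median of 0.13. None of the 63 was called, and 8 had an unadjusted p under 0.05 (limma), beside 15.0% of all genes. In atria 49 of 69 were positive, beside 49.9% of all genes, with a median of 0.10. None of the 69 was called, and 9 had an unadjusted p under 0.05 (limma), beside 4.61% of all genes. The smallest p in ventricles belonged to Lgals3bp, a secreted glycoprotein, at 32.3 ± 2.80 CPM in idKO and 25.0 ± 2.29 CPM in control ventricles (0.36 ± 0.09 SE, adjusted p = 0.0745), followed by Ifi203 (0.33 ± 0.09 SE, adjusted p = 0.106) and Slfn2 (0.42 ± 0.13 SE, adjusted p = 0.147). In ventricles DESeq2 called Lgals3bp and Ifi203 higher, and edgeR and voom called none. In atria Ifi205 was at 19.2 ± 0.811 CPM in idKO and 13.7 ± 2.91 CPM in control libraries (0.48 ± 0.14 SE, adjusted p = 0.890), and Ifi207 had 0.37 ± 0.12 SE (adjusted p = 0.966).

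Members with and without the ISRE core were set side by side. Among members with a listed promoter, 14 of 16 with the core and 11 of 12 without it had a positive log2 fold change in ventricles, with medians of 0.18 and 0.14. In atria 13 of 16 with the core and 12 of 12 without it were positive, with medians of 0.17 and 0.12. Ifit3, with its 2 separate cores shown above, had the most negative value of the ventricle comparison, and Ifit1, with 2 cores from the same gene cluster, had 0.40.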

How the data were processed

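RNA of 8 mice was sequenced as 60-base single reads from 20 ng of RNA per library, per the labels' protocols. Per the submitters' processing notes, cutadapt and RSEM 1.3.1 were used with build GRCm38; how the values were scaled is not given in the sources used here. Values deposited by the authors are a normalised signal. Reads were recovered from its steps on the assumption that 0.5 was added to each read number before scaling by an effective library size. Under this inferred form 100% of the recovered read numbers were whole within 0.01. Recovered reads are rounded estimates, as RSEM divides reads between near-identical genes; Oas1a, Ifit3 and the Gbp genes have such relatives. Herc6, Igtp, Irf7 and Irf9 share exon bases with another table gene, and Ifi35 with an antisense gene; a strand setting is not given in the sources used here.

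Differences were fitted with limma 3.58.1 (R 4.3.3), two-sided, with log2(value + 1) as the response, a prior with trend and Benjamini-Hochberg adjustment over all tested genes, and an adjusted p under 0.05 was a call. This scale understates changes of low genes. A gene was tested where 4 libraries of the fit reached 1 CPM after each library was rescaled to an equal sum. The effective library size was 0.622 to 0.727 of the recovered reads in ventricles and 0.929 to 0.986 in atria. On the scale printed here the filter therefore lay above 1 CPM, and higher in ventricles than in atria. Each chamber was fitted on its 8 libraries, and interaction and chamber differences on all 16. The fits were also run on simulated counts with the same spread for all genes and no effect of the mouse. That setting differs from these data, so the run does not vouch for the calls. Marker sums were compared by exact permutation over 70 assignments. Alternatives were other pseudocounts, filters, scalings, priors and weights, a joint fit, the mouse as block, each library or mouse left out, and edgeR 4.0.16, DESeq2 1.42.0 and voom on recovered reads, where edgeR called 2 members in ventricles and 0 in atria. Atrium and ventricle of a mouse are paired because they come from 1 animal, and their deviations correlated at 0.177 to 0.302 over 11802 genes, each mouse best with itself. Named are called members, then the smallest p up to 8 in ventricles, 6 in atria and 4 in the interaction, and in chambers up to 6 called in each direction. Members and lists were chosen with earlier results of these data known.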

Additional observations from a re-analysis of the deposited data

Results flagged for a closer look

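Of 148 groups of 4 libraries, 4 held a library far from the other 3 of its group, fewer than the 7.4 groups that a chance of 0.05 per group gives. In idKO ventricles replicate 3 was the lowest for Irf9, at 13.82 CPM beside 21.97 to 23.6 CPM in the others. The same library was the lowest for Ifit3, at 6.549 CPM beside 11.3 to 12.1 CPM, and for Isg15, at 2.158 CPM beside 3.43 to 3.46 CPM. In control ventricles replicate 2 was the highest for Samhd1, at 44.69 CPM beside 35.0 to 36.5 CPM.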

How the results depend on the processing

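The count of 2 members called higher in ventricles became 0 in the joint fit and with the prior without trend, 1 without a filter, and 0 to 3 over the alternatives; leaving out 1 library at a time gave 0 to 2. It was 0 without control ventricle replicate 4 and 1 without control ventricle replicate 2 or 3 or idKO ventricle replicate 2 or 3. Adjusted p ran from 5.16e-05 to 0.262 for Iigp1 and from 0.00132 to 0.0900 for Oas2 over 20 alternatives. The median in ventricles stayed between 0.14 and 0.28 and that in atria between 0.13 and 0.23, and no member was called in atria or in the interaction under any of the alternatives run. The interaction median ran from -0.070 to 0.047 with each mouse left out, the highest without control replicate 3, and turned to 0.027 without idKO replicate 1.

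With the mouse as a replicate block, fixed or random, 12 members were higher in control atria instead of 9, and 7 were lower instead of 4. In idKO atria the fixed block gave 10 higher and 8 lower and the random block 10 and 6, instead of 9 and 6. Rescaling to equal sums gave 21 higher and 2 lower in control atria, and 20 higher and 3 lower in idKO atria; there Cmpk2 turned to 0.0061 and Ifi35 to 0.12. Leaving out each mouse gave 5 to 10 higher in idKO atria, with 5 without idKO replicate 3, and without control replicate 3 the median in control hearts turned to -0.049. For members with few reads, such as Mx1, Zbp1 and Isg15, depth limits what can be seen. The cause of these changes was not tested.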
